A study of Mus musculus with 172 samples.

Results

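The 33 genes described here encode the proteins that carry glucose into a cell, convert it to pyruvate and lactate, let the lactate out and run the pentose phosphate pathway, with the regulator HIF1A beside them. They were listed by gene symbol, with earlier results of these data known, and they are 33 of the 49671 Ensembl genes counted in every cell. They comprise 2 glucose transporters, 11 genes of upper glycolysis (from hexokinase to triosephosphate isomerase), 8 of lower glycolysis (from glyceraldehyde-3-phosphate dehydrogenase to pyruvate kinase), 4 of lactate production and transport, 7 of the pentose phosphate pathway and 1 regulator, Hif1a.

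Single cells of the inner cell mass (ICM) of mouse blastocysts were profiled by Smart-seq2, which copies whole transcripts without molecular identifiers. The embryos came from matings of Oct4+/- mice of mixed genetic background, and the genotype was read from the trophectoderm (TE), which immunosurgery had lysed and removed. MUT embryos lack OCT4 (gene Pou5f1), HET embryos carry 1 intact allele and WT embryos 2. At E3.5 there were 29 MUT cells from 4 embryos and 58 WT/HET cells from 7 embryos (5 WT, 2 HET). At E4.5 there were 19 MUT cells from 2 embryos (11 cells of embryo 3 and 8 of embryo 8), and 37 epiblast (EPI) and 29 primitive endoderm (PrE) cells from the same 6 WT or HET embryos (2 WT, 4 HET). The authors assigned these cells to lineages by clustering the same transcriptomes. All E3.5 cells carry 1 plate number and all E4.5 cells another, so stage and plate cannot be told apart.

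Glycolysis turns glucose into pyruvate with a small yield of ATP, and lactate dehydrogenase turns pyruvate into lactate so that NAD+ is restored and the pathway can run on. The pentose phosphate pathway branches off at glucose-6-phosphate and gives NADPH for biosynthesis and ribose for nucleotides. The cleavage stage mouse embryo lives on pyruvate and lactate from its surroundings, and glucose uptake and glycolysis become prominent towards the blastocyst stage. HIF1A, the oxygen-regulated subunit of hypoxia-inducible factor 1, is known to activate many glycolytic genes.

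The counts of all cells from 1 embryo, or from its EPI or its PrE, were added up, so that embryos and not cells serve as replicates. After a level or a share, ± gives the SD over embryos. After a log2 fold change, or a difference on that scale, ± gives the standard error (SE) of the fit. Counts in genes ranged from 363819 to 4644070 per cell and from 2736296 to 17453036 per sum, the lowest being the PrE of embryo 6 with 2 cells. The EPI of embryo 1 has 3 cells. CPM scales a gene's counts to the TMM-adjusted total of the sum, and is a share of the counted RNA from which the amount of RNA per cell cannot be read, and FPKM is CPM per kilobase of the gene's principal transcript, the scale used to compare genes. Comparisons used edgeR's quasi-likelihood test, adjusted by Benjamini-Hochberg over all genes tested, and a gene is called at an adjusted p under 0.05. Pou5f1 averaged 298 CPM in E3.5 WT/HET and 4.31 CPM in E3.5 MUT embryos, and had 0 counts in the 19 E4.5 MUT cells, at least 1384-fold lower than in EPI when 3 counts over the group are taken as the floor. The summed level of 13 TE markers was 273.2 to 1039 CPM in E3.5 WT/HET embryos, 1285 to 2311 in E3.5 MUT, 149.5 to 392 in EPI, 835.1 to 1781 in PrE and 8855 to 10220 in E4.5 MUT. Gata2 was at 0 in E3.5 MUT, Cdx2, Elf5 and Krt7 in EPI and Elf5 and Krt7 in PrE, while none of the 13 was at 0 in E4.5 MUT. The 10 EPI markers summed to 2167 to 3923 CPM in EPI, 183.9 to 345.4 in PrE and 734.9 to 1509 in E4.5 MUT. Fgf4 was at 0 in PrE and Gdf3 in E4.5 MUT. The 12 PrE markers summed to 2793 to 6848 CPM in PrE, 7.07 to 58.2 in EPI and 575.5 to 789.1 in E4.5 MUT. Sox7 and Foxa2 were at 0 in E4.5 MUT. E4.5 MUT embryos thus lay between the lineages for both marker sums.

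Read pairs that aligned to more than 1 place are in no gene's count, and they made up a median of 38.8% of the pairs of E3.5 WT/HET cells, 41.1% in E3.5 MUT, 24.9% in EPI, 19.7% in PrE and 22% in E4.5 MUT. Some glycolytic genes have near-identical copies, so part of their reads is lost. Of the 100-base stretches of the gene's transcripts, 78% also lie in transcripts of other genes for Gapdh, 67% for Pgk1, 59% for Eno1 and 39.7% for Pgam1, against 1.32% for Ldha, 0.19% for Slc2a1 and 0 for Slc2a3. The levels of the first 4 are therefore uncertain, and the part of the multi-mapped share in their changes was not tested. Exons of Rpe (20.7% of their length), Pfkp (18%) and Gpi1 (12.3%) overlap another gene, and reads of the 2 genes cannot be told apart there without strand.

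The promoters of the 4 genes that were called in the same direction in E4.5 MUT cells against both EPI and PrE are shown, since these genes return in most comparisons below (both comparisons share the MUT embryos): Slc2a1, the glucose transporter GLUT1, and the enzymes Pgam1, Eno1 and Ldha. Each window runs from 250 bases before to 50 after a RefSeq start on the GRCm38.p6 plus strand, read 5′ to 3′. Capitals mark the letters ACGTG or GCGTG on either strand (so also CACGT and CACGC), the core of the hypoxia response element, or CACGTG, the E-box, which holds ACGTG on both strands. Ldha has 2 windows, 1327 and 49 bases from the start of its principal transcript.
Slc2a1 chr4:119108495-119108794: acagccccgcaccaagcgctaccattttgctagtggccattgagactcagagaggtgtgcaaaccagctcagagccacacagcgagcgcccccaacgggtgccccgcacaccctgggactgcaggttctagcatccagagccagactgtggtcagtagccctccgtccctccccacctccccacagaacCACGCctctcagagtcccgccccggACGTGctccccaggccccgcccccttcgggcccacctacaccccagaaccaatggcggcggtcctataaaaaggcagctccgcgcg
Pgam1 chr19:41911621-41911920: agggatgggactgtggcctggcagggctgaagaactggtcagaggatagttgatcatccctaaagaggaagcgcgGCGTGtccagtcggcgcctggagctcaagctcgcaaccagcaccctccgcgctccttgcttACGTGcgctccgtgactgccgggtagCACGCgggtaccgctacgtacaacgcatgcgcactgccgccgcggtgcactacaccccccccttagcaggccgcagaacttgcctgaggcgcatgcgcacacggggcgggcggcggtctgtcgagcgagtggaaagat
Eno1 chr4:150236458-150236757: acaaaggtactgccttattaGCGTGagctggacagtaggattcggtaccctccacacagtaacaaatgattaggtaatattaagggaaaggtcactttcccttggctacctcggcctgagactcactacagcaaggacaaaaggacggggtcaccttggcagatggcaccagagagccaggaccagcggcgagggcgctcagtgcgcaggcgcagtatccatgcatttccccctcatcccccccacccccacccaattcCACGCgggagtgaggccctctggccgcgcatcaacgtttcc
Ldha chr7:46845554-46845853: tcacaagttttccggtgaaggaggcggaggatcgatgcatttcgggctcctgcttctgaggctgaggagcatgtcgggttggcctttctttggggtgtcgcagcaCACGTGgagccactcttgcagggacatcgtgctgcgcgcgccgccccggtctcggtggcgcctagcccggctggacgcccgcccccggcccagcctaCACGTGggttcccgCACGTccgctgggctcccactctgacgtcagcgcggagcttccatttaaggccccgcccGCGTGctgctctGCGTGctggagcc
Ldha chr7:46846832-46847131: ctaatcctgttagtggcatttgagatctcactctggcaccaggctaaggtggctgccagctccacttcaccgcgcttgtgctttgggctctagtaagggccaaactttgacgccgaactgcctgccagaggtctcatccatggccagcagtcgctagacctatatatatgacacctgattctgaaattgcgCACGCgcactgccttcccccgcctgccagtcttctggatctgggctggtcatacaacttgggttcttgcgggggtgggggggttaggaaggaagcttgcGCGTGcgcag

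The first Ldha window holds 7 matches, 4 of them in its 2 E-boxes, and the second holds 2. Slc2a1 and Eno1 have 2 matches and Pgam1 has 3. A RefSeq window was found for 32 of the 33 members, Slc2a3 being the exception, and 25 of these 32 (78.1%) hold ACGTG or GCGTG, against 43.8% of 32851 windows of all genes. The E-box was in 3 of the 32 (9.38%, Pfkfb3, Slc16a1 and Hif1a in the window nearest the principal start) and in 7.15% of all windows. The octamer ATGCAAAT, a sequence that OCT4 can bind, was in 0 of 32 and in 1.74% of all windows. Each member was counted by the window nearest its principal start. The shares of all windows count windows and not genes, so a gene with several starts, such as Ldha, can enter with several windows. The shares of members and of all windows were thus taken by different rules, and an enrichment was not tested. The counts are matches of letters only and no binding was measured.

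In the E3.5 ICM of WT/HET embryos the pathway was uneven. Aldolase (338.6 ± 73.3 FPKM, SD, n = 7), transaldolase (209.1 ± 31.2), 6-phosphogluconate dehydrogenase (161 ± 9.06) and pyruvate kinase (154.3 ± 46.5) had the highest summed levels of the 21 steps. Ribose-5-phosphate isomerase (1.16 ± 0.893), phosphofructokinase (4.80 ± 1.39), lactate dehydrogenase (4.94 ± 4.22), hexokinase (6.64 ± 1.43) and phosphoglycerate kinase (8.53 ± 2.0) had the lowest. Phosphofructokinase, which commits the sugar to glycolysis, and lactate dehydrogenase, which ends it, were thus among the lowest steps of the early ICM, and so was hexokinase, which traps glucose. The pentose phosphate genes together stood at 483.7 ± 37.7 FPKM, level with upper glycolysis at 463.1 ± 83.6 FPKM and above lower glycolysis at 332.2 ± 70.0 FPKM. Lower glycolysis includes Gapdh, Pgk1, Eno1 and Pgam1, whose levels are uncertain because reads shared with other genes are not counted. The part of these lost reads in the rank of lower glycolysis and of phosphoglycerate kinase was not tested.

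**Figure D1:**
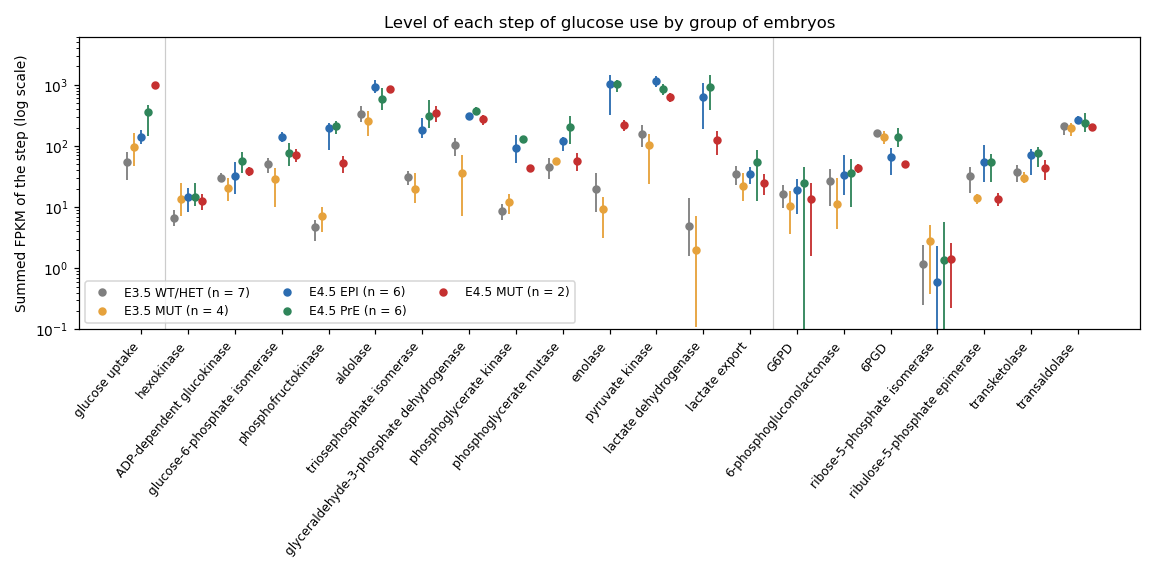
Summed FPKM of the isoenzymes of each step (y axis, log scale) along glucose uptake, glycolysis to lactate export and the pentose phosphate pathway (x axis), with 1 colour per group, points at the mean over embryos and lines from the lowest to the highest embryo, cut at the bottom of the axis where an embryo is at 0. Phosphofructokinase, enolase and lactate dehydrogenase lie furthest apart between stages, with means of 4.80, 19.5 and 4.94 FPKM in E3.5 WT/HET and of 193.5, 1025 and 622.7 FPKM in EPI, and E4.5 MUT embryos are highest at glucose uptake (mean 993.7 FPKM).

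From E3.5 WT/HET to E4.5 EPI most of the pathway rose. Of 32 members tested, 21 were higher in EPI (65.6%, against 15.5% of all 11142 genes tested) and 1 was lower (16.4% of all genes). The median log2 fold change was 1.53 over the members and -0.06 over all genes. Both transporters, 7 of 11 genes of upper glycolysis, all 7 tested of lower glycolysis, 3 of 4 lactate genes and 2 of 7 pentose phosphate genes were higher. Eno2, the neuronal enolase, was not tested. From E3.5 WT/HET to PrE, 20 of 29 tested members were higher (69.0%, against 14.8% of 10800 genes) and 0 were lower (16.9% of all genes), with medians of 1.32 and -0.09. By edgeR none was lower at an unadjusted p under 0.05 either and by DESeq2 0 were, while limma-trend with every cell weighted equally called 2 lower, edgeR with WT controls 1 (Pfkfb3, adjusted p = 0.0426) and edgeR without embryo 4 also 1. Aldoc, Eno2, Eno3 and Ldhb were not tested there. These 2 comparisons share the 7 E3.5 embryos, and in both the change of plate runs with the change of stage.

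Ldha, the muscle-type subunit of lactate dehydrogenase that favours lactate formation, had the largest change of the called members in both lineages. Its E3.5 WT/HET embryos lay between 1.91 and 21.2 CPM with a median of 6.78 CPM. EPI embryos had 323.5, 772.2, 924.8, 943.9, 1410 and 1813 CPM, and PrE ran from 695 to 2560 CPM. No E3.5 embryo came near an E4.5 one, and the log2 fold change was 7.08 ± 0.58 (SE, adjusted p = 6.66e-07) in EPI and 7.67 ± 0.55 (adjusted p = 1.22e-07) in PrE. Ldha was found in 23 of 58 cells at E3.5 and in all 37 EPI and 29 PrE cells. Ldhb, the heart-type subunit, was at 0 to 2.70 CPM at E3.5 and rose by 5.69 ± 1.10 (adjusted p = 0.001) in EPI, where embryos ranged from 7.91 to 124.7 CPM.

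Eno1, which forms phosphoenolpyruvate, was at 16.7 to 72.5 CPM at E3.5 and at 590.2 to 2903 CPM in EPI and 1553 to 2383 CPM in PrE. Its log2 fold changes were 5.77 ± 0.41 (adjusted p = 1.77e-07) and 5.73 ± 0.30 (adjusted p = 8.81e-09), and between the lineages its difference was 0.01 ± 0.28. Pkm, pyruvate kinase of the last ATP-forming step, rose by 2.93 ± 0.20 and 2.43 ± 0.19, Pgk1, of the first such step, by 3.44 in EPI and 3.92 in PrE, and Tpi1, which interconverts the triose phosphates, by 2.58 ± 0.21 and 3.31 ± 0.24. Smaller changes of 1.32 to 1.82 were seen for Gapdh and Pgam1, the next enzymes of the chain, in both lineages. Pgam2, the muscle phosphoglycerate mutase, rose by 3.66 ± 1.21 and 7.10 ± 1.01, and Eno3, the muscle enolase, from 0 to 1.55 CPM at E3.5 to 0 to 42.2 CPM in EPI (5.28 ± 1.32). Aldoa, the aldolase of the pathway, rose by 1.47 in EPI and 0.76 in PrE. Ldha, Eno1, Pkm, Pgk1, Tpi1, Gapdh, Pgam1 and Aldoa stayed called in both lineages with any 1 embryo left out.

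The phosphofructokinase genes rose most in upper glycolysis, and by different isoenzymes. Pfkl, the liver-type enzyme, was at 6.66 to 15.6 CPM at E3.5, at 171.7 to 282.4 CPM in EPI and at 568.5 to 874.7 CPM in PrE (log2 fold changes 4.46 and 6.13, adjusted p = 2.64e-09 and 4.84e-11). Pfkp, the platelet-type enzyme, was at 1.09 to 14.2 CPM at E3.5 and rose by 6.21 ± 0.59 in EPI (adjusted p = 2.39e-06), while its value in PrE was 1.44 (adjusted p = 0.107). Pfkm, the muscle-type enzyme, was called in both (4.48 ± 1.34 and 4.36 ± 1.32), from 0 to 4.90 CPM at E3.5 to 0.144 to 81.9 CPM in EPI. Gpi1, glucose-6-phosphate isomerase, rose by 1.5 ± 0.15 in EPI and 0.56 ± 0.19 in PrE. Hk2, the inducible hexokinase, rose by 1.82 ± 0.34 and 1.77 ± 0.34, while Hk1, the housekeeping hexokinase, was not called (-1.55 and -1.28, adjusted p = 0.283 and 0.451). Adpgk, a glucokinase that uses ADP, rose in PrE (0.94 ± 0.20). Pfkm in EPI lost the call without embryo 2 (adjusted p = 0.0549).

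The transporters rose in both lineages and not equally. Slc2a1 was at 51.1 to 150.9 CPM at E3.5, at 210.5 to 408.7 CPM in EPI and at 146.5 to 602.1 CPM in PrE, with log2 fold changes of 1.78 ± 0.28 and 1.85 ± 0.34. Slc2a3, the high-affinity transporter GLUT3, was at 42.3 to 188 CPM at E3.5 and at 1064 to 1255 CPM in PrE apart from embryo 6 with 399.8 CPM (3.35 ± 0.33, adjusted p = 2.7e-06). In EPI it was at 85.1 to 267.6 CPM (0.89 ± 0.32, adjusted p = 0.0419), a call lost when embryo 2, 4, 5, 7, 11, 14, 15, 16 or 18 was left out (adjusted p up to 0.104). Slc16a3, the lactate exporter MCT4, was at 0 to 1.23 CPM at E3.5 and rose by 6.17 ± 0.65 in EPI and 3.65 ± 1.04 in PrE. Slc16a1, the monocarboxylate transporter MCT1, was called in neither.

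The pentose phosphate pathway changed little and in part the other way. Pgd, which makes the second NADPH of the pathway, was the only member called lower in the main fit, from 335 to 380.8 CPM at E3.5 to 74.9 to 202.3 CPM in EPI (-1.27 ± 0.19, adjusted p = 0.000149), with no overlap. In PrE it stood at 211.6 to 430.2 CPM (-0.18, adjusted p = 0.389). For EPI limma-trend also called Hk1, Pfkfb3 and Rpia lower. With edgeR, Pfkfb3 was called lower with WT controls (-5.515, adjusted p = 0.00689) and Slc16a1 without the shallow cells (-0.583, adjusted p = 0.0461). Tkt, transketolase of the non-oxidative arm, rose by 0.91 ± 0.21 and 1.01 ± 0.19, and Taldo1, transaldolase of the same arm, by 0.39 ± 0.12 in EPI. Rpe, ribulose-5-phosphate epimerase, rose by 0.78 ± 0.26 in PrE. G6pdx, the entry enzyme, Pgls and Rpia were called in neither lineage. Hif1a rose by 0.65 ± 0.21 in PrE and had 0.07 in EPI. Left-out embryos ended the call of Taldo1 (embryo 1, 7 or 14, adjusted p up to 0.0688), of Rpe (8 of 13 embryos: 1, 2, 4, 7, 9, 13, 14 and 18, up to 0.0818), of Hif1a in PrE (7 or 9, up to 0.0602), of Gpi1 in PrE (1, 2, 4, 9, 11 or 18, up to 0.0785) and of Pgam2 in EPI (4, 11 or 13, up to 0.0693).

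**Figure D2:**
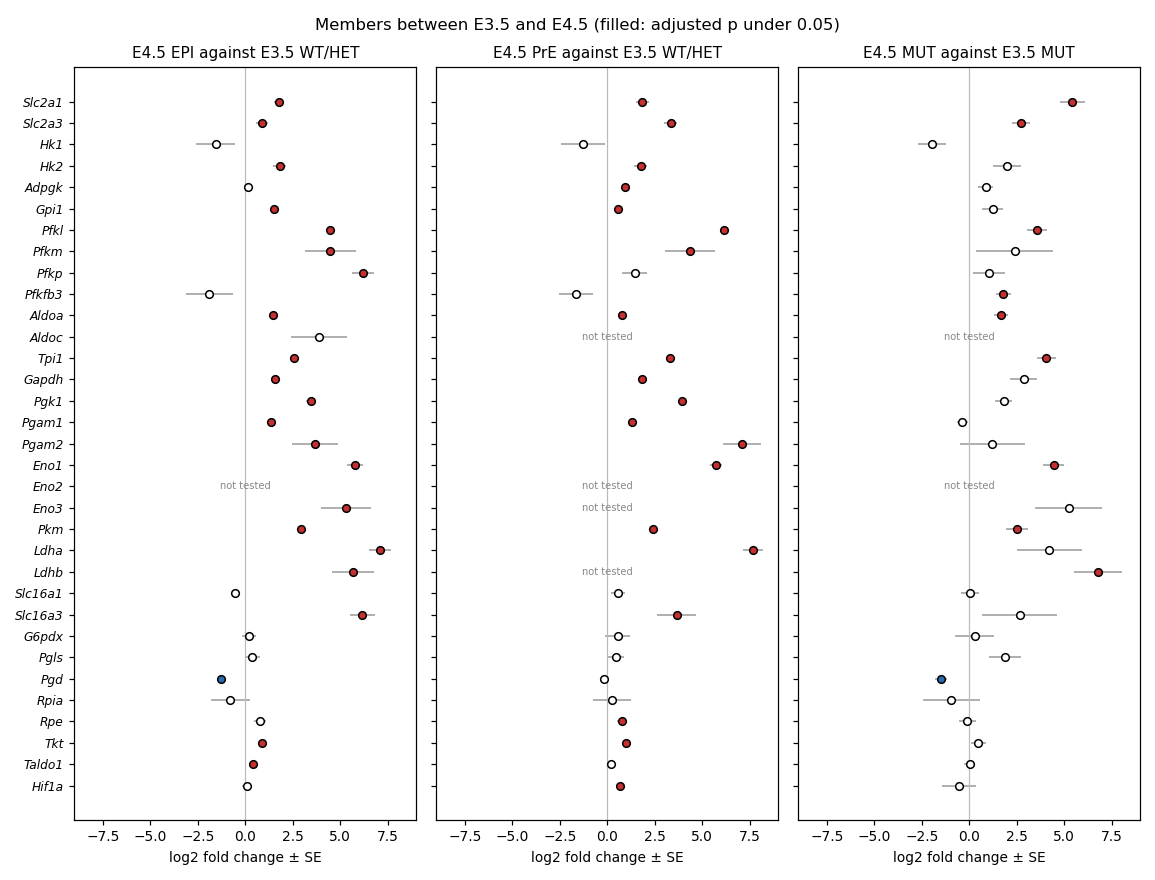
Log2 fold change ± SE of the 33 members (rows) between E3.5 and E4.5 for EPI, PrE and MUT (panels), with called members filled, red where higher and blue where lower at E4.5. Lower glycolysis is filled throughout in EPI and PrE except for members not tested, with Ldha at 7.08 and 7.67, and Pgd is the only blue point in EPI (-1.27) and in MUT (-1.49).

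Between the E4.5 lineages the members differed gene by gene. The lineages were assigned from the same expression data, so these tests are not independent of that assignment. Of 30 tested (all but Pfkfb3, Eno2 and Rpia), 4 were higher in EPI (13.3%, against 4.61% of 9762 genes) and 4 were lower (13.3%, against 5.2%), with a median of -0.09 over the members and 0.03 over all genes. Pfkp was at 530.4 to 668.4 CPM in EPI apart from embryo 1 with 96.8 CPM, and at 6.51 to 54.1 CPM in PrE (log2 fold change 4.71 ± 0.58, adjusted p = 0.000117). Pfkl went the other way, with every PrE embryo above every EPI embryo (-1.69 ± 0.15, adjusted p = 5.61e-06). EPI and PrE thus held a like summed level of phosphofructokinase, 193.5 ± 56.0 and 212 ± 34.6 FPKM, from different isoenzymes. Slc2a3 was lower in EPI by 2.48 ± 0.30 (adjusted p = 0.000105), and Pgd by 1.11 ± 0.25 (adjusted p = 0.00958). Gpi1 was higher in EPI, at 333.9 to 496.1 CPM against 133.8 to 322.2 CPM (0.91 ± 0.19, adjusted p = 0.00593).

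Aldoa (0.68 ± 0.20, adjusted p = 0.0438) and Pkm (0.47 ± 0.14, adjusted p = 0.045) were also higher in EPI and Pgam2 was lower (-3.52 ± 0.96, adjusted p = 0.0321). Each of these 3 lost its call without embryo 1, 2, 5 or 7, Aldoa and Pgam2 also without embryo 6 and Pkm without embryo 4 (adjusted p up to 0.126, 0.122 and 0.163). EPI and PrE came from the same 6 embryos, and with embryo as a block 10 members were called, 5 in each direction. Tpi1 (-0.74, adjusted p = 0.0169), Ldha (-0.72, adjusted p = 0.0101) and Ldhb (5.90, adjusted p = 0.0164) were then called and Pgam2 was not. Ldhb was at 7.91 to 124.7 CPM in EPI and at 0 to 0.687 CPM in PrE apart from embryo 5 with 14.4 CPM, and was found in 27 of 37 EPI and 4 of 29 PrE cells.

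At E3.5 few members were called in MUT embryos. Of 29 tested, 3 were higher in MUT (10.3%, against 3.2% of 12075 genes) and 1 was lower (3.45%, against 2.98%), and Aldoc, Eno2, Eno3 and Slc16a3 were too low to be tested. The median over the members was -0.50 and over all genes -0.02, and 19 of the 29 had a negative value. Hk1 had 76.7, 20.0, 26.1 and 51.5 CPM in MUT embryos 10, 12, 17 and 19, all above the 4.80 to 17.3 CPM of WT/HET (2.06 ± 0.44, adjusted p = 0.0159). Pfkfb3, whose product makes the activator of phosphofructokinase, was at 16 to 24.3 CPM in MUT and 2.43 to 11.6 CPM in WT/HET (1.52 ± 0.40, adjusted p = 0.0419). Slc2a3 was at 179.2, 604.7, 381.8 and 190.4 CPM in MUT and 1 of these 4, embryo 10, lay within the range of WT/HET, which reached 188.3 CPM (1.75 ± 0.39, adjusted p = 0.0192). Rpe was lower at 30.6 to 43.5 CPM against 46.1 to 124 CPM (-1.17 ± 0.27, adjusted p = 0.0254).

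Slc2a1, Gapdh and Pgam2 lay just outside the threshold, the first 2 with lower and the last with higher values in MUT. Slc2a1 had 6.06, 33.3, 30.8 and 46.4 CPM in MUT, below every WT/HET embryo (-1.63 ± 0.47, adjusted p = 0.0623), and was called lower by DESeq2 (adjusted p = 0.00372). Gapdh had 10.1 to 100.9 CPM in MUT and 95.8 to 190.5 CPM in WT/HET (-1.54 ± 0.46, adjusted p = 0.0644), and DESeq2 called it too (adjusted p = 0.00386). Pgam2 had 7.80, 2.74, 6.23 and 6.19 CPM in MUT, above the 0 to 1.60 CPM of WT/HET (3.46 ± 1.05, adjusted p = 0.0698), and was called higher by DESeq2 (adjusted p = 0.0129). The other 22 members tested and not called had adjusted p-values from 0.17 upwards. Each of the 4 calls was lost in at least 1 refit with an embryo left out. Hk1 was lost without embryo 10 (adjusted p = 0.0649), Slc2a3 and Rpe without embryo 12 or 17 (up to 0.0555 and 0.0675), and Pfkfb3 without embryo 10, 11, 12, 13, 15, 16, 17 or 19 (up to 0.0868). The TE markers were higher in these MUT embryos, 4 of 10 tested being called (3.2% of all genes), and their part in the values was not tested.

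At E4.5 the members called higher in MUT were glucose transporters, and those called lower lay mostly in glycolysis and lactate formation. Of lower glycolysis 3 of 7 tested members were called lower in each comparison, and Gapdh, Pgam2 and Eno3 in neither. Against EPI, 2 of 32 tested members were higher in MUT (6.25%, against 2.3% of 12953 genes) and 5 were lower (15.6%, against 2.62%). Against PrE, 1 of 32 was higher (3.13%, against 1.74% of 12246 genes) and 8 were lower (25%, against 2.07%). The medians were -0.46 and -0.52 over the members, and -0.03 and 0.05 over all genes, and Eno2 was not tested. The same 2 MUT embryos enter both comparisons. Their TE markers were the highest of all groups, 7 of 12 tested being called higher against EPI and 4 of 13 against PrE, and the part of TE-like cells in the values below was not tested.

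Slc2a1 had 1111 and 1540 CPM in MUT embryos 3 and 8, against 210.5 to 408.7 CPM in EPI and 146.5 to 602.1 CPM in PrE. Both MUT embryos stood above all 12 EPI and PrE sums, and the log2 fold changes were 2.07 ± 0.27 (adjusted p = 0.00259) and 2.0 ± 0.43 (adjusted p = 0.0352). Slc2a3 had 2739 and 1910 CPM, also above every control sum, and was 3.61 ± 0.33 higher than EPI (adjusted p = 0.000458) and 1.17 ± 0.35 against PrE (adjusted p = 0.0955). Both transporters stayed called against EPI with any embryo left out, and Slc2a1 against PrE lost the call without embryo 1, 3, 5, 7 or 8 (adjusted p up to 0.2). With every cell weighted equally Slc2a1 was not called in either comparison. Pfkfb3 had 86.9 and 64.6 CPM in MUT against 0 to 9.08 CPM in EPI and 0 to 8.25 CPM in PrE, again with no overlap, and was not called (5.28 ± 1.80, adjusted p = 0.131, and 5.01 ± 1.32, adjusted p = 0.0724, both by edgeR). DESeq2 called it against PrE (adjusted p = 0.00339), as did edgeR with no filter or with a minimum mean of 10 CPM (adjusted p = 0.0493 and 0.0474), and limma-trend called it against both PrE (0.0035) and EPI (adjusted p = 0.00199).

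Of the called members Ldha fell furthest. It had 32.9 and 65.8 CPM in MUT embryos 3 and 8, and the lowest EPI or PrE sum was the EPI of embryo 1 with 323.5 CPM. The log2 fold change was -4.41 ± 0.69 against EPI (adjusted p = 0.00693) and -5.01 ± 0.56 against PrE (adjusted p = 0.00134), and the call against EPI was lost without embryo 3 (adjusted p = 0.0788). Eno1 had 526 and 321.6 CPM, below every EPI and PrE sum, with the EPI of embryo 1 next at 590.2 CPM (-2.31 ± 0.56, adjusted p = 0.0457, against EPI and -2.26 ± 0.26, adjusted p = 0.00143, against PrE). Its call against EPI was lost without any of embryos 2 to 8 (adjusted p up to 0.247) and when the shallowest cells were left out. Pgam1, which moves the phosphate of phosphoglycerate, had 70.0 and 74.0 CPM against 144.7 to 227.2 CPM in EPI and 140.2 to 260.5 CPM in PrE (-1.50 ± 0.26, adjusted p = 0.012, and -1.47 ± 0.33, adjusted p = 0.0402). It lost the call against EPI without embryo 3 or 8 (up to 0.107) and against PrE without 2, 3, 4, 5 or 8 (up to 0.265), and with median-of-ratios size factors it was not called against PrE.

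Pfkp and Pfkl each fell against the lineage in which it was the more abundant form. Pfkp had 54 and 6.69 CPM in MUT, below every EPI embryo (-4.09 ± 0.97, adjusted p = 0.0429), and within the range of PrE. Pfkl had 88.2 and 239.5 CPM, below every PrE embryo (-2.17 ± 0.38, adjusted p = 0.0131) and, in embryo 3 alone, below the EPI embryos. Pfkl held its call with any embryo left out, and Pfkp lost it without 2, 4, 5, 6, 7 or 8 (adjusted p up to 0.147). Pgk1 had 74.8 and 86.0 CPM against 226 to 256.4 CPM in PrE (-1.56 ± 0.22, adjusted p = 0.00537, lost without embryo 3 at 0.0786) and 94.9 to 271.8 CPM in EPI (-1.08 ± 0.39, adjusted p = 0.15). Pgk1 and G6pdx lie on the X chromosome, and of the MUT embryos 3 had 134.8 CPM of Xist while 8 had 29.6 CPM of the Y-linked Ddx3y. The part of embryo sex in their values was not tested. Gpi1 was at 155.9 and 254.7 CPM in MUT, below every EPI embryo, and edgeR did not call it (-1.02 ± 0.25, adjusted p = 0.0519). DESeq2, limma-trend and edgeR with a minimum mean of 10 CPM called Gpi1 lower than EPI (adjusted p = 0.00429, 0.000494 and 0.0374). Against PrE its edgeR value was -0.07. Pkm had 1772 and 1274 CPM against 2258 to 3424 CPM in EPI (-0.92 ± 0.21, adjusted p = 0.0392), and lost the call without any of embryos 2 to 8 (up to 0.247).

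In the pentose phosphate pathway Pgd and Rpe were lower than in PrE, by 1.46 ± 0.31 (adjusted p = 0.0322) and 1.99 ± 0.46 (adjusted p = 0.0465). Pgd had 112.7 and 115.8 CPM in MUT, within the range of EPI. Rpe had 45.0 and 28.4 CPM, below every EPI and PrE embryo, the lowest of them being at 68.1 CPM. Against EPI edgeR did not call Rpe (-2.01 ± 0.55, adjusted p = 0.0727). DESeq2, limma-trend and edgeR with a minimum mean of 10 CPM called it lower there (adjusted p = 0.00283, 0.0126 and 0.0467). Hif1a had 52.1 and 94.2 CPM in MUT and 199.5 to 274.4 CPM in PrE (-1.72 ± 0.30, adjusted p = 0.0135), and -1.16 against EPI (adjusted p = 0.17). Embryo 3 ended the call of Hif1a (adjusted p = 0.152), and 6 of the 8 embryos that of Pgd (2, 3, 4, 5, 7 or 8, up to 0.213) and of Rpe (1, 2, 3, 4, 7 or 8, up to 0.265).

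**Figure D3:**
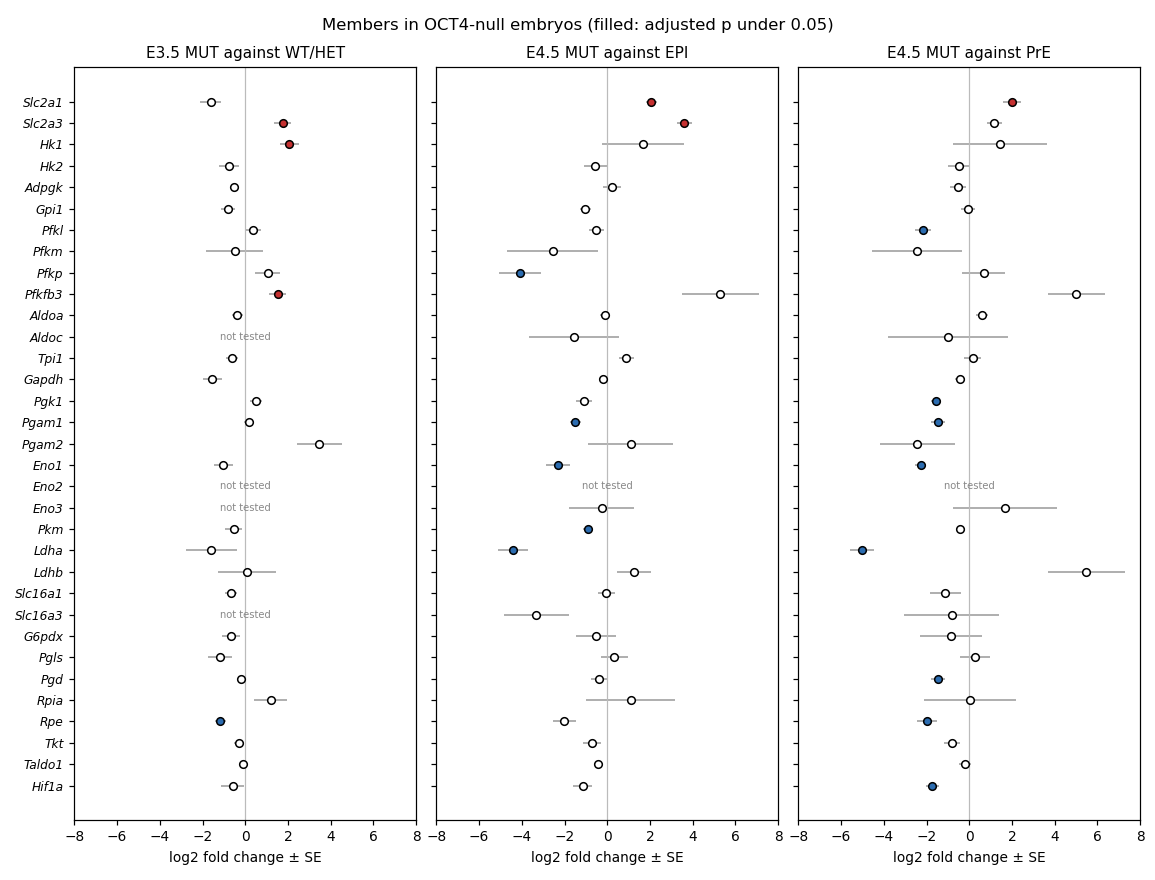
Log2 fold change ± SE of the 33 members (rows) in MUT embryos against E3.5 WT/HET, E4.5 EPI and E4.5 PrE (panels), with called members filled, red where higher and blue where lower in MUT. Slc2a1 changes side between the stages (-1.63 at E3.5, 2.07 and 2.0 at E4.5), and Ldha and Eno1 are the lowest called members at E4.5 against PrE (-5.01 and -2.26).

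**Figure D4:**
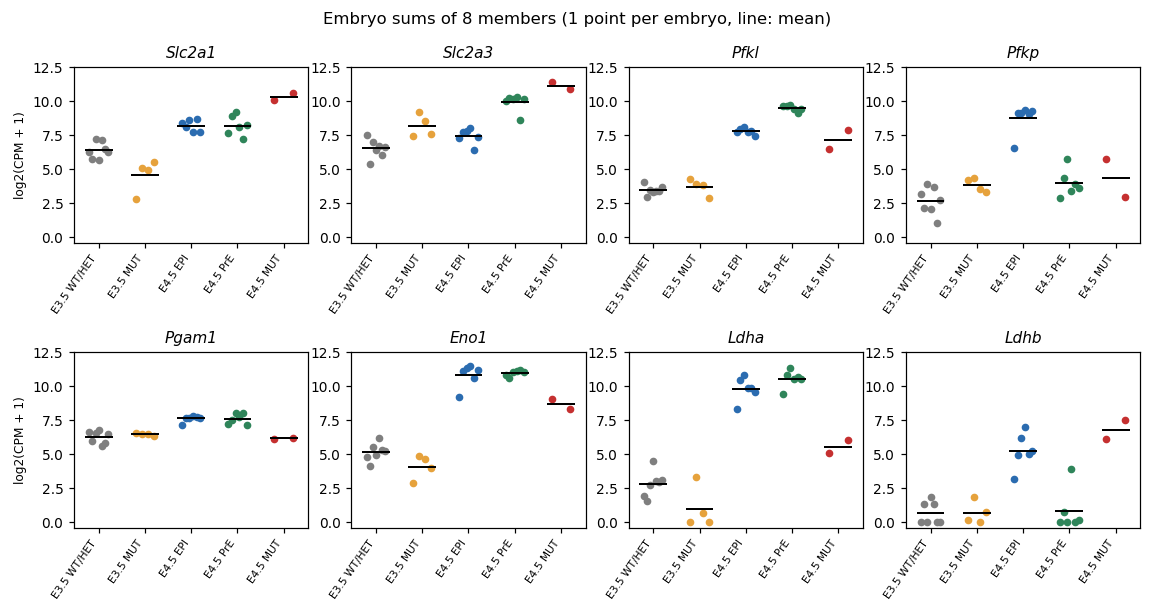
Log2(CPM + 1) of 8 members (panels) in every embryo sum (points), by group, with a line at the mean. Both E4.5 MUT embryos lie above all EPI and PrE sums for Slc2a1 (1111 and 1540 CPM) and below all of them for Pgam1, Eno1 and Ldha. For Pfkp and Pfkl the EPI and PrE points change places.

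Part of the pathway rose in MUT embryos between the stages. Of 31 members tested (all but Aldoc and Eno2), 9 were higher at E4.5 than at E3.5 (29%, against 3.08% of 12714 genes) and 1 was lower (3.23%, against 3.69%), with medians of 1.80 and -0.03. Slc2a1 (5.42 ± 0.67), Slc2a3 (2.73 ± 0.48), Pfkl (3.57 ± 0.54), Pfkfb3 (1.80 ± 0.41), Aldoa (1.68 ± 0.38), Tpi1 (4.07 ± 0.48), Eno1 (4.45 ± 0.55), Pkm (2.52 ± 0.59) and Ldhb (6.78 ± 1.26) rose, and Pgd fell (-1.49 ± 0.31). Ldha was not called, with 0 to 8.92 CPM at E3.5 and 32.9 and 65.8 CPM at E4.5 (4.22 ± 1.73, adjusted p = 0.163). Pgam1 stood at 81.6 to 94.7 CPM and then at 70.0 and 74.0 CPM (-0.37). Without embryo 3, 1 member (Tpi1) of 33 genes in all was called, against 10 of 860 with every embryo. There were 3 of 208 without embryo 8, 3 of 129 without embryo 17 and 4 of 301 without embryo 19, so the calls fell over all genes as well. Every member but Tpi1 lost its call in at least 1 of the 6 refits (adjusted p up to 0.18), and stage and plate again cannot be told apart.

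The difference between the E4.5 and the E3.5 effect of genotype was tested with the whole WT/HET ICM (EPI and PrE cells summed) as the E4.5 control. It was called for 5 of 33 members, 1 upwards (3.03%, against 2.71% of 16410 genes) and 4 downwards (12.1%, against 2.75%), with a median of -0.21 over the members and -0.07 over all genes. For Slc2a1 the difference was 3.57 ± 0.63 (adjusted p = 0.00229), from -1.64 (adjusted p = 0.0383 in this fit) at E3.5 to 1.93 (adjusted p = 0.00986) at E4.5, and it held with any embryo left out. For Pfkl it was -1.91 ± 0.51, for Pfkp -4.45 ± 1.17, for Pgk1 -1.86 ± 0.38 and for Pgam1 -1.69 ± 0.36 (adjusted p = 0.0323, 0.0314, 0.00751 and 0.00899). The E3.5 effects of these 4 lay between 0.16 and 1.05 and none was called, and those at E4.5 between -3.40 and -1.38, all called. The E4.5 control mixes lineages, and Pfkp averaged 510 CPM in EPI and 19.25 in PrE, Pfkl 228.7 and 741.1 CPM. The E4.5 effects of Pfkp and Pfkl thus depend on that mix. By edgeR, MUT embryos were not called for Pfkp against PrE (0.67, adjusted p = 0.843) or for Pfkl against EPI (-0.51, adjusted p = 0.487). Without embryo 3 Pfkl, Pgk1 and Pgam1 lost their calls (adjusted p up to 0.224), Pfkl also without embryo 10, and Pfkp without embryo 8 (adjusted p = 0.151). Pfkl and Pgk1 were also not called by limma-trend, nor by edgeR with WT controls (adjusted p = 0.2345 and 0.0723). Pfkfb3 was called at E4.5 in this fit (5.16, adjusted p = 0.00142), and its difference was 3.65 ± 1.26 (adjusted p = 0.098). For Ldha the difference was -3.23 ± 1.33 (adjusted p = 0.176), although the E4.5 effect was -4.74 and that at E3.5 -1.52. With every cell weighted equally limma-trend called it for Ldha (-7.31, adjusted p = 1.81e-06). Other settings called Pgam2 and Pgd (DESeq2 and limma-trend) and Rpe (limma-trend) downwards, and Pfkfb3 (edgeR with WT controls) upwards. Slc2a3 was called higher in MUT at both stages (1.74 and 1.92), and its difference was 0.19 (adjusted p = 1).

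Isoenzymes of a step were compared by their share of its RNA. The shares are of the summed FPKM of the family and are a description with no test. Slc2a1 made up 52.5% ± 11.8 (SD, n = 7) of the transporters in E3.5 WT/HET, 10.5% ± 8.48 (n = 4) in E3.5 MUT, 66.3% ± 12.3 (n = 6) in EPI, 27.6% ± 7.90 (n = 6) in PrE and 41.2% ± 11.7 (n = 2) in E4.5 MUT, and Slc2a3 the rest. Hk1 was 42.1% ± 19.7 of the hexokinases in E3.5 WT/HET and 82.4% ± 8.61 in E3.5 MUT, and Hk2 prevailed at E4.5 with 92.2% ± 9.29 in EPI, 93.3% ± 9.83 in PrE and 70.9% ± 22.3 in MUT. Pfkp was 60.2% ± 16.9 of phosphofructokinase in EPI and 2.11% ± 1.61 in PrE, where Pfkl was 93.9% ± 2.49. E4.5 MUT embryos had 78.8% ± 20.3 Pfkl, at a summed 52.8 ± 22.8 FPKM against 212 ± 34.6.

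Ldhb was 6.13% ± 4.59 of lactate dehydrogenase in EPI, 0.231% ± 0.535 in PrE and 76.2% ± 3.73 in E4.5 MUT, where the 2 embryos had 73.5% and 78.8%. Ldhb itself was at 67.5 and 180.6 CPM in MUT embryos and was not called by edgeR against EPI (1.25 ± 0.78, adjusted p = 0.411) or PrE (5.48 ± 1.81, adjusted p = 0.137). Both MUT embryos stood above every PrE sum (0 to 14.4 CPM), and limma-trend called Ldhb higher than in PrE (2.78, adjusted p = 0.0104). The family as a whole stood at 123.1 ± 74.5 FPKM in E4.5 MUT, 622.7 ± 306 in EPI and 911.9 ± 342 in PrE. Pgam2 was 37.2% ± 23.9 of phosphoglycerate mutase in PrE and 5.90% ± 5.95 in EPI, with PrE embryos 1 and 5 at 192.1 and 161.3 CPM and the other 4 at 21.2 to 44.6 CPM. Slc16a3 was 32.1% ± 10.2 of the monocarboxylate transporters in EPI, 7.77% ± 10.4 in PrE and 3.35% ± 4.73 in E4.5 MUT. Aldoa and Eno1 made up over 94% of their families in every group.

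**Figure D5:**
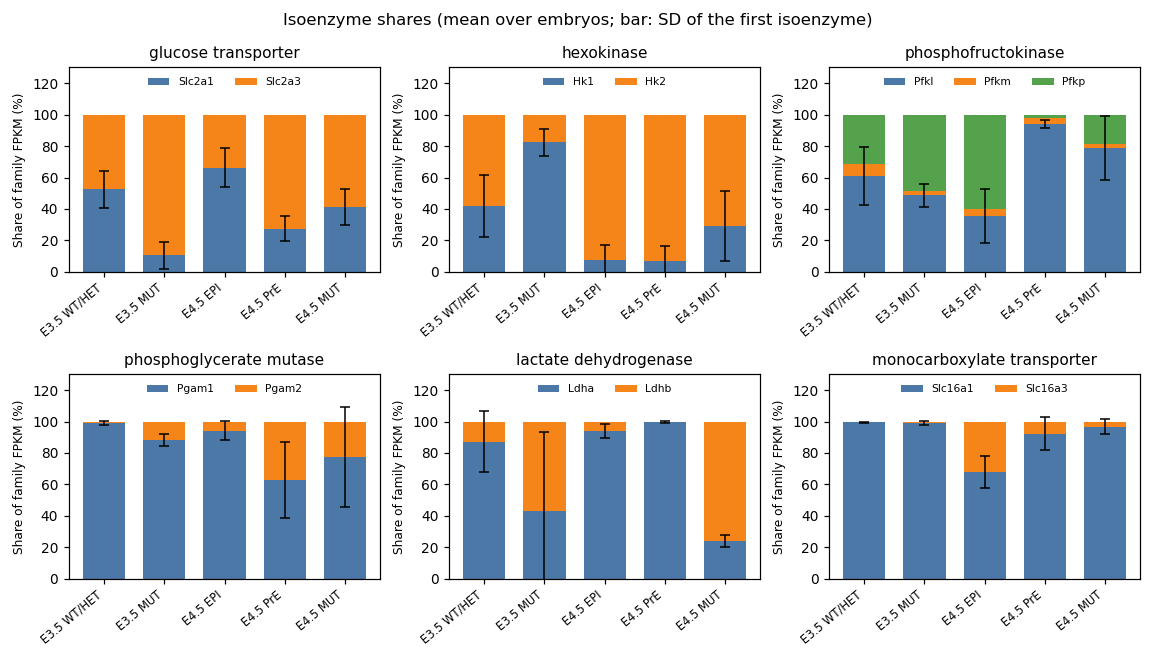
Share of the family's FPKM (y axis, %) held by each isoenzyme (colours) in the 5 groups (x axis) for 6 families, as means over embryos with a bar of 1 SD for the first isoenzyme, which can run past the axis or past 100%. Ldhb holds 76.2% of lactate dehydrogenase in E4.5 MUT and 6.13% in EPI, and Pfkp 60.2% of phosphofructokinase in EPI and 2.11% in PrE.

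Single cells were compared by the presence of a transcript. Ldha had at least 1 count in 6 of 19 E4.5 MUT cells, 2 of 11 in embryo 3 and 4 of 8 in embryo 8, and in every EPI and PrE cell. The mean share per embryo was 34.1% ± 22.5 (n = 2) in MUT, and 29.6% after cells were thinned to 832934 counts, where EPI and PrE kept 100%. Ldhb was in 9 of the 19 MUT cells, and 4 cells held both, so 8 of the 19 had neither. Hif1a was in 10 of 19 E4.5 MUT cells, 32 of 37 EPI cells and all 29 PrE cells. At E3.5, Slc2a1 was in 57 of 58 WT/HET and 20 of 29 MUT cells, and Hk1 in 44 of 58 and 28 of 29. A cell held a median of 24 of the 33 members in E3.5 WT/HET, 23 in E3.5 MUT, 25 in EPI, 25 in PrE and 21 in E4.5 MUT. Over all genes the median number detected per cell was 9397, 8890, 6965, 7169 and 6514 in the same order, so E4.5 MUT was lowest there too.

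Other lists of the same metabolism are given by their counts. Over all genes edgeR called 3.2% higher and 2.98% lower in E3.5 MUT. In E4.5 MUT it called 2.3% and 2.62% against EPI, and 1.74% and 2.07% against PrE. From E3.5 WT/HET it called 15.5% and 16.4% in EPI, and 14.8% and 16.9% in PrE. Of 16 further glycolytic enzymes and their regulators, edgeR called 0 of 8 tested in E3.5 MUT (0 at an unadjusted p under 0.05), 0 of 10 in E4.5 MUT against EPI (2 unadjusted) and 0 of 8 against PrE (3 unadjusted). From E3.5 to EPI 2 of 8 were lower, among them Tigar, the bisphosphatase that turns sugar towards the pentose phosphate pathway (-1.91 ± 0.25, adjusted p = 4.55e-05), and to PrE 3 were higher and 1 lower. Tigar was lower in E4.5 than in E3.5 MUT as well (-2.26 ± 0.36, adjusted p = 0.0187). Of 13 further carriers, Emb, a partner protein of the lactate transporters, was at 340.3 to 1013 CPM in PrE and at 0.0583 and 0 CPM in MUT (fitted log2 fold change -11.64, which rests on the prior count, adjusted p = 8.4e-05). It was the only one of 4 tested carriers called in each E4.5 comparison of MUT.

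Of 14 HIF targets outside glycolysis, 2 of 13 tested were higher in E3.5 MUT (3.2% of all genes). In E4.5 MUT 2 were higher and 1 lower in each comparison, of 14 tested against EPI and of 12 against PrE. The shares of all genes there were 2.3% and 2.62% against EPI, and 1.74% and 2.07% against PrE. By edgeR at an unadjusted p under 0.05, 3 were higher and 3 lower in E4.5 MUT in each comparison. Bnip3, a mitophagy receptor, had 440.5 and 686.3 CPM in MUT against 21.8 to 91.3 CPM in EPI and 20.5 to 102.9 CPM in PrE (3.38 ± 0.44, adjusted p = 0.00242, and 3.25 ± 0.49, adjusted p = 0.0066). Ndrg1, a stress-induced gene, was 5.12 ± 0.39 higher than EPI (adjusted p = 0.000166). Ndrg1 was also 6.13 ± 0.76 higher in E4.5 than in E3.5 MUT (adjusted p = 0.0114). P4ha1, a subunit of the enzyme that hydroxylates collagen, was 3.55 ± 0.31 lower in EPI than in PrE (adjusted p = 5e-06). Of the 9 genes of the HIF pathway itself, 2 of 7 tested were higher in E3.5 MUT. They were Vhl, the ubiquitin ligase subunit that marks HIF1A for breakdown (1.46 ± 0.22, adjusted p = 0.00344), and Epas1, which encodes the related HIF2A and was chosen after its value was seen (2.17 ± 0.45, adjusted p = 0.0141). In E4.5 MUT edgeR called 0 of 7 against EPI and 0 of 8 against PrE (0 and 1 unadjusted).

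Prps1, which turns ribose-5-phosphate into the precursor of nucleotides, was the only further pentose phosphate gene called in E4.5 MUT. It had 8296 and 3374 CPM in MUT embryos 3 and 8, against 451 to 956.2 CPM in EPI and 9.12 to 201.7 CPM in PrE. MUT embryos stood above every control sum, and the log2 fold changes were 3.10 ± 0.32 (adjusted p = 0.000794) and 5.99 ± 0.74 (adjusted p = 0.00227). At E3.5 it was already 1.28 ± 0.26 higher in MUT (adjusted p = 0.0124), and the difference between the stages was 2.49 ± 0.47 (adjusted p = 0.00393). Prps1 lies on the X chromosome, and the part of embryo sex in its values was not tested. Tktl1, a transketolase-like gene, was lower in EPI than at E3.5 by 9.05 ± 0.49 (adjusted p = 8.49e-07) on the fitted log2 scale, with 0 counts in the EPI cells, so that the value rests on the prior count. Of 15 genes of glycogen and hexose interconversion, 1 of 13 tested was higher and 1 lower in E3.5 MUT (3.2% and 2.98% of all genes). In E4.5 MUT 1 of 14 tested was higher against EPI (2.3% of all genes), and edgeR called 0 of 12 against PrE (3 unadjusted). Gfpt2, of the hexosamine pathway, was 7.52 ± 1.04 higher in E4.5 than in E3.5 MUT (adjusted p = 0.0144). Of 6 gluconeogenesis genes edgeR called 0 in E3.5 MUT and in E4.5 MUT against EPI or PrE, with 0 at an unadjusted p under 0.05.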

How the data were processed

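Single ICM cells of 5 groups (172 cells in all) were read as paired ends after Smart-seq2. The authors aligned reads with STAR to GRCm38 and deposited, per cell, raw htseq-count counts per Ensembl gene with no normalization. Pairs aligned to more than 1 place (32.3% over all cells), to more than 1 gene (8.65%) or to no gene (4.72%) are not in any gene's count, and rows that name no gene were left out. Depth was 363819 to 4644070 counts per cell. No 2 cells held identical values. Groups were taken from the deposited labels and embryos from the sample list of the study. The members and lists were chosen with earlier results of these data known.

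Counts were summed per embryo and tested with edgeR 4.0.16 (quasi-likelihood F-test, TMM, filterByExpr, prior count 2, R 4.3.3), with Benjamini-Hochberg adjustment over all genes tested and a threshold of 0.05. The authors tested single cells with scde, which was not used here. EPI and PrE of the same embryos are paired by their source, although their deviations from the group means correlated weakly (0.00897 to 0.0662). Whether embryos share a litter is not stated, so p-values measure the spread between these embryos. FPKM used the APPRIS principal transcript of GENCODE vM21 (GRCm38). All 33 members were counted in every comparison and those called were named, Pou5f1 was given as the targeted gene, and from each comparison at most 3 called genes of the other lists, those with the smallest adjusted p. Epas1 was named outside this rule. Alternatives were DESeq2 1.42.0, limma 3.58.1 on the mean log2(CPM + 1) of cells, other size factors, other filters, 9 shallow cells left out, WT controls only, each embryo left out and embryo as a block. The tests were tried on simulated data first.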

Additional observations from a re-analysis of the deposited data

Results flagged for a closer look

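In groups of 4 to 10 embryos, the highest or lowest embryo of each member was set against the others by Dixon's test at the 95% level, for the 109 combinations of member and group whose highest embryo reached 10 CPM. It stood apart in 9, and chance alone marks about 5% of groups. The PrE of embryo 6, with 2 cells, had 399.8 CPM of Slc2a3 while the other PrE embryos had 1064 to 1255. The EPI of embryo 1, with 3 cells, had 96.8 CPM of Pfkp (others 530.4 to 668.4) and 144.7 CPM of Pgam1 (others 200.8 to 227.2), and among EPI sums it also had the highest TE marker sum (392 CPM) and the lowest EPI marker sum (2167 CPM), whose part in these values was not tested. Embryo 4 had 54.1 CPM of Pfkp in its PrE (others 6.51 to 19.8) and 19.7 CPM of Pgam2 in its EPI (others 0 to 6.83). Embryo 14 had the highest Ldha of E3.5 WT/HET, 21.2 CPM (others 1.91 to 7.42). The PrE of embryo 5 had 14.4 CPM of Ldhb (others 0 to 0.687), E3.5 MUT embryo 12 had 26.4 CPM of Pgls (others 3.90 to 5.48) and the PrE of embryo 1 had 10.2 CPM of Rpia (others 0 to 2.72).

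The effect of genotype differed between the stages, by the interaction term of the edgeR fit, for 5 members. On the log2 scale the E4.5 effect less the E3.5 effect was 3.57 for Slc2a1, -1.91 for Pfkl, -4.45 for Pfkp, -1.86 for Pgk1 and -1.69 for Pgam1. Stage and plate cannot be told apart in this term, and its E4.5 control sums EPI and PrE cells, which differ in Pfkp and Pfkl.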

How the results depend on the processing

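Of 140 counts of called members under an alternative, 116 stayed within 1.5 times the main count, and of 4298 log2 fold changes of members 0 turned in direction with a call, 209 lost a call and 98 gained one. The counts that moved further were those of E3.5 MUT against WT/HET, which went from 4 to 7 with DESeq2, to 9 with limma-trend and to 1 with WT embryos as the only controls, and those with WT controls of E4.5 MUT against EPI (from 7 to 0, edgeR), against PrE (from 9 to 1) and of EPI against PrE (from 8 to 0, edgeR). With WT controls 2 embryos remain on each side at E4.5, and over all genes 48, 27 and 3 were then called. With 1 embryo left out the members called ranged from 1 to 5 for E3.5 MUT (482 to 882 over all genes), 3 to 7 for E4.5 MUT against EPI (226 to 774), 3 to 10 against PrE (169 to 534), 5 to 8 for EPI against PrE (649 to 916), 20 to 23 for EPI (3026 to 3972) and 17 to 21 for PrE (2894 to 3905) against E3.5, 1 to 9 for MUT over time (33 to 516) and 2 to 7 for the difference between stages (562 to 1015); where 1 MUT embryo was left, it was taken to vary like the others. With embryo as a replicate block 10 members were called between EPI and PrE, 7 of them shared with the main 8. Over all genes DESeq2 and limma-trend called more than 1.5 times as many genes as edgeR in all 3 comparisons of MUT with controls (DESeq2 1607, 1691 and 1219, limma-trend 1353, 1479 and 1097, against 746, 637 and 466), in MUT over time (2652 and 2247 against 860), in the difference between stages (1816 and 1445 against 896) and, for EPI against PrE, 1447 and 1824 against 958; limma-trend called 5793 and 5191 in EPI and PrE against E3.5, where edgeR called 3557 and 3420. Of 495 shares of cells 51 moved beyond 1 SD with another minimum or with thinning, and of 270 isoenzyme shares 22 moved. The causes were not tested.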
